A study of Mus musculus with 6 samples.

Results

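The genes described here encode 10 enzymes that make serine, asparagine and one-carbon units in the cell, together with the mitochondrial form of phosphoenolpyruvate carboxykinase. They were a named list, selected on earlier results of the same arrays, in which amino acid stress genes had stood high in 1 control culture. For each gene the row with the highest mean intensity over the arrays was to be used. All 10 were measured, each by a single row of the deposited table, among 22180 named genes in all. Both the level and the co-variation of these transcripts are therefore given as descriptions, and no test supports them.

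The arrays came from RET cells, a melanoma line of the C57BL/6 mouse strain, in 2 groups of 3 cultures. Control cells were transduced with a non-targeting short hairpin RNA (shRNA), and their titles also carry the word GFP, whose meaning is not given. Silenced cells were transduced with a single hairpin against Angpt2, called Angpt2 shRNA-1, so an effect of Angpt2 loss cannot be told apart from another effect of this hairpin or from a difference between both transduced populations. Both groups were seeded at equal cell number and grown for 24 h in high-glucose DMEM with FCS, antibiotics and added non-essential amino acids, a supplement that supplies serine, glycine and asparagine among others. The labels do not say whether the transduced cells were 1 clone or a pool.

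Serine is made from the glycolytic intermediate 3-phosphoglycerate in a chain of reactions catalysed by Phgdh, Psat1 and Psph. Serine hydroxymethyltransferases then pass a carbon from serine to folate, and mitochondrial folate enzymes turn it into formate for the synthesis of purines, thymidylate and methionine. Asns makes asparagine from aspartate and glutamine. The transcription factor ATF4, which is translated when amino acids are short or the endoplasmic reticulum is stressed, is known to raise transcription of most of these genes, and several of them support the growth of tumours, melanoma included.

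All 8 listed pigment cell markers were measured. Tyrp1, Dct, Pmel and Mlana read 5068 to 9651 normalized intensity units (the authors' normalized signal on a linear scale) over the 6 arrays. The lineage factor Mitf read 2414 to 2970, the lineage factor Sox10 1387 to 1899 and the pigment enzyme gene Tyr 1460 to 2694, while the mouse Ret gene was dim at 74.2 to 88.3. Of the 8, 6 were highest on control replicate 1, against 25.8% of all genes. The median log2 deviation of the 8 was 0.11 there against -0.09 to 0.04 on the other arrays, and Tyr stood at 0.61 there. The log2 difference between silenced and control cells was -0.20 (SE 0.08) for Mitf, -0.15 (SE 0.12) for Sox10 and -0.15 (SE 0.20) for Tyr, and -0.18, -0.07 and 0.12 without control replicate 1, with 0 of the 8 called by limma. Markers of fibroblasts, leukocytes, endothelial cells and keratinocytes lay between 45.2 and 175 for the 19 of 20 listed genes that were measured. Their summed intensity ran from 397 to 435 in controls against 392 to 417 in silenced cells for fibroblasts, from 372 to 426 against 383 to 394 for leukocytes, from 308 to 336 against 335 to 350 for endothelial cells, and from 264 to 293 against 240 to 268 for keratinocytes. Array medians were 74.5 to 76.2. All 10 enzyme transcripts lay above the median gene, whose mean intensity was 87.7, at 245 to 4415. Angpt2, the target, read 195, 372 and 326 in the 3 controls and 100.2, 122 and 122 in the silenced cells. Those groups did not overlap, and the log2 difference was -1.33 (SE 0.21, limma adjusted p = 1.00 over all genes).

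Control replicate 1 stood apart for these enzymes, and the group differences of the enzymes are given with and without it. The pigment markers were also higher on that array, by less, and their part in this pattern was not tested. Of the 5 dim leukocyte markers 4 were highest there too, with a median deviation of 0.11. Among the fibroblast, endothelial and keratinocyte markers 1 of each list was highest there. Of the 10 transcripts 8 were highest on that array, where 25.8% of all genes were highest. Pck2, Aldh1l2, Psph and Asns were at least 1.5-fold above the next highest array there, which held for 0.451% of all genes. The mean log2 deviation of the 10 genes from their own 6-array means was 0.73 on control replicate 1. In control replicates 2 and 3 it was -0.43 and -0.06. In the silenced replicates 1, 2 and 3 it was -0.04, -0.36 and 0.15. The cause of the height on control replicate 1 was not tested, and in a whole culture a larger share of cells with a transcript and more transcript per cell cannot be told apart. The median of all genes stayed between -0.01 and 0.02 on every array.

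**Figure D1:**
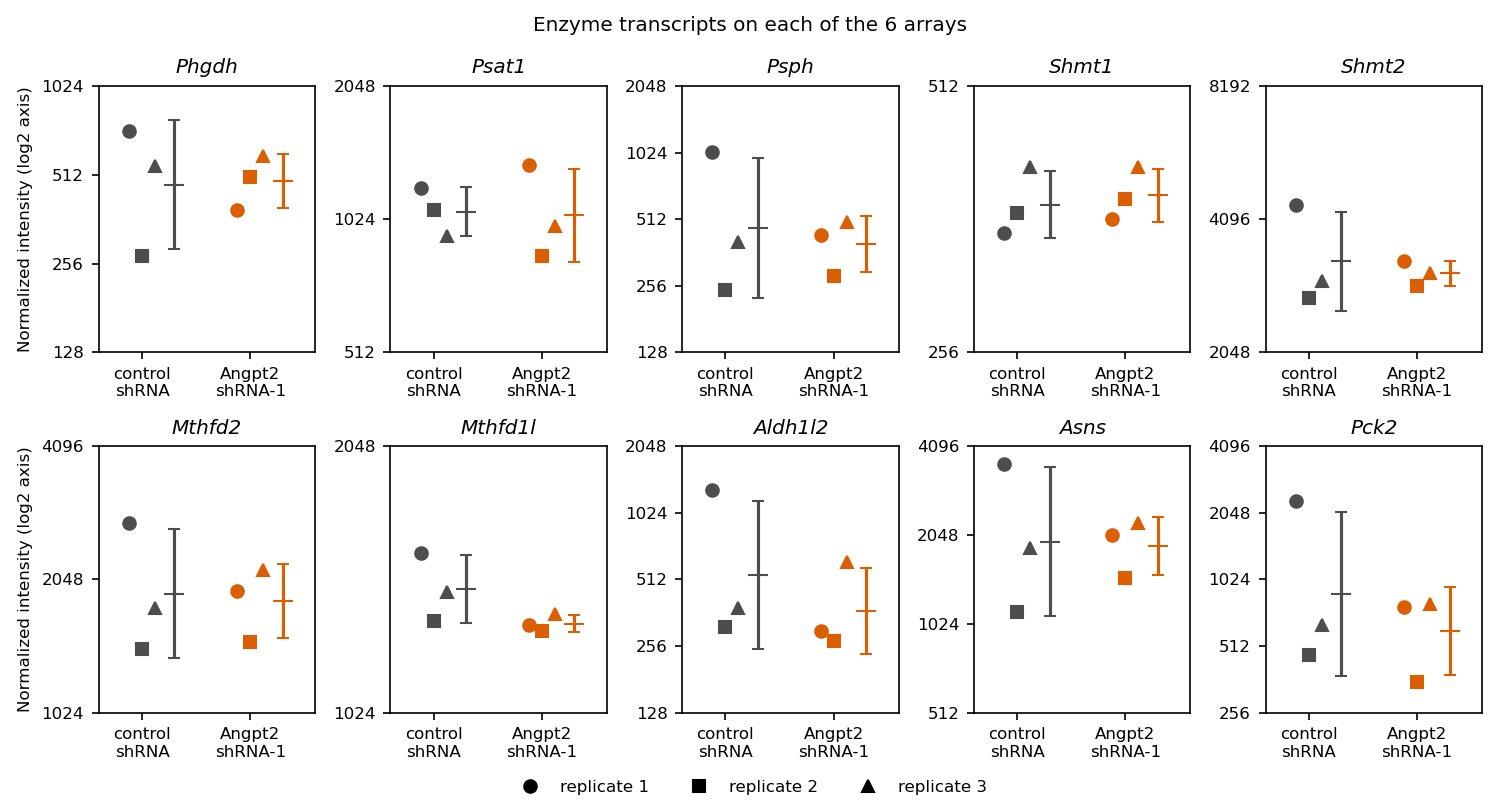
Normalized intensity of each enzyme transcript (log2 axis, 1 panel per gene) on the 3 control (grey) and 3 Angpt2 shRNA-1 (orange) arrays, with the replicate number shown by symbol and the geometric mean ± SD of log2 values beside the points. In 8 of 10 panels the highest point is control replicate 1, and in none do the groups separate.

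The serine synthesis chain differed between cultures by more than between groups. Phgdh, the dehydrogenase that commits 3-phosphoglycerate to serine, read 719, 271 and 546 in controls and 389, 504 and 593 in silenced cells, given here and below in the order of replicates 1, 2 and 3. Its controls spanned the whole range, with replicate 1 highest and replicate 2 lowest, and all silenced arrays lay between them. The group means were 8.89 ± 0.73 and 8.93 ± 0.31 on the log2 scale (SD, n = 3 each), a difference of 0.04 (SE 0.31), and 0.34 (SE 0.28) without control replicate 1.

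Psat1, the aminotransferase of the second step, read 1203, 1074 and 936 in controls and 1360, 847 and 988 in silenced cells. Its highest arrays were the number 1 arrays of both groups, with the silenced one above the control. The groups overlapped, with a log2 difference of -0.03 (SE 0.17), and 0.06 (SE 0.18) without control replicate 1. Phgdh, by contrast, was at its lowest among the silenced arrays on replicate 1.

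Psph, the phosphatase that releases serine, read 1035, 245 and 404 in controls and 434, 284 and 496 in silenced cells. Control replicate 1 was 2.09-fold above the next highest array, and both number 2 arrays were lowest. On the log2 scale the means were 8.87 ± 1.06 and 8.62 ± 0.42 (SD, n = 3), and the difference of -0.25 (SE 0.44) became 0.33 (SE 0.26) without control replicate 1.

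Among the one-carbon enzymes the 4 mitochondrial members were all highest on control replicate 1, and the cytosolic member was lowest there. Shmt2, the mitochondrial serine hydroxymethyltransferase, read 4415, 2718 and 2962 in controls and 3297, 2896 and 3099 in silenced cells. The other 5 arrays lay within 1.21-fold of each other, and control replicate 1 was 1.34-fold above the highest of them. The log2 difference between groups was -0.09 (SE 0.17), and 0.12 (SE 0.10) without control replicate 1.

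Shmt1, the cytosolic enzyme for the same reaction, read 349, 367 and 414 in controls and 362, 382 and 415 in silenced cells. It had the smallest range of the 10, with 1.19-fold between its extremes. Within replicates 1, 2 and 3 its log2 differences were 0.05, 0.05 and 0.0017. Its log2 difference was 0.04 (SE 0.10), and -0.02 (SE 0.10) without control replicate 1. On control replicate 1 the deviation of Shmt2 exceeded that of Shmt1 by 0.59 on the log2 scale, while on the other arrays the same quantity ran from -0.23 to 0.12.

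Mthfd2, the mitochondrial methylenetetrahydrofolate dehydrogenase and cyclohydrolase, read 2748, 1423 and 1764 in controls and 1929, 1477 and 2152 in silenced cells. Both number 2 arrays were lowest and control replicate 1 was highest. Its log2 difference was -0.06 (SE 0.23), and 0.21 (SE 0.16) without control replicate 1. Of the 10 enzymes, Mthfd2 lay closest to the mean profile of the other 9, at a root mean square distance of 0.091 log2 units over the 6 arrays.

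Mthfd1l, which releases formate from folate in the mitochondrion, read 1550, 1299 and 1400 in controls and 1285, 1265 and 1323 in silenced cells. The silenced arrays were tight, with an SD of 0.03 on the log2 scale, and overlapped the controls only through control replicate 2. The log2 difference of -0.13 (SE 0.09) was negative within replicates 1, 2 and 3, at -0.27, -0.04 and -0.08, and was -0.06 (SE 0.09) without control replicate 1.

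Aldh1l2, the mitochondrial 10-formyltetrahydrofolate dehydrogenase, which oxidises the carbon unit and yields NADPH, read 1295, 313 and 379 in controls and 301, 271 and 616 in silenced cells. Control replicate 1 was 2.10-fold above silenced replicate 3, which in turn was clearly above the 4 arrays left. The means were 9.06 ± 1.11 and 8.53 ± 0.65 (log2, SD, n = 3). The difference of -0.54 (SE 0.50) became 0.10 (SE 0.31) without control replicate 1.

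Asns, the asparagine synthetase, is a classical ATF4 target whose promoter holds a C/EBP-ATF response element. It read 3556, 1119 and 1853 in controls and 2042, 1462 and 2244 in silenced cells. Control replicate 1 was 1.58-fold above silenced replicate 3, and control replicate 2 was lowest. The log2 difference was -0.05 (SE 0.35), and 0.39 (SE 0.23) without control replicate 1, where the silenced arrays read 1462 to 2244 against 1119 and 1853 in controls.

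Pck2, the mitochondrial phosphoenolpyruvate carboxykinase, makes phosphoenolpyruvate from oxaloacetate, which can supply carbon for serine synthesis. Among the 10 it varied most, at 2324, 466 and 635 in controls and 768, 353 and 796 in silenced cells. Control replicate 1 was 2.92-fold above the next highest array and 4.03-fold above the geometric mean of the other 5, and the range over all arrays was 6.58-fold. The means were 9.79 ± 1.23 and 9.23 ± 0.66 (log2, SD, n = 3), a difference of -0.56 (SE 0.54), which became 0.14 (SE 0.32) without control replicate 1.

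The proximal promoters are shown for both members in which a form of the C/EBP-ATF response element was found, an element that ATF4 is known to bind. Their transcripts were high on control replicate 1 and low on the number 2 arrays. So were those of Psph and Mthfd2, in which no match was found. A link between the element and the pattern was not tested. The pattern TGATGNAA was searched on both strands of the RefSeq windows of GRCm38.p6 that run from 250 bases before to 50 bases after a gene's start. Windows were given for 9 members (Psat1 has 2), and for Aldh1l2 none was used. Matches were found in 2 members, Asns and Pck2, against 3.97% of all 32851 windows. In Asns the match begins 23 bases before the start used in that table, and in Pck2 it lies on the reverse strand and begins 103 bases before it. The stretches below end at or before the start, with the match in capitals, and lie at chr6:7693210-7693258 (minus strand) and chr14:55540137-55540196 (plus strand).
Asns: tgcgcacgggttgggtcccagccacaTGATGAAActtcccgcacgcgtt
Pck2: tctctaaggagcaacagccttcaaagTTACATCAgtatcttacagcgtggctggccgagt
A match is a description of the letters. The other members hold none in these windows, and no binding was measured.

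**Figure D2:**
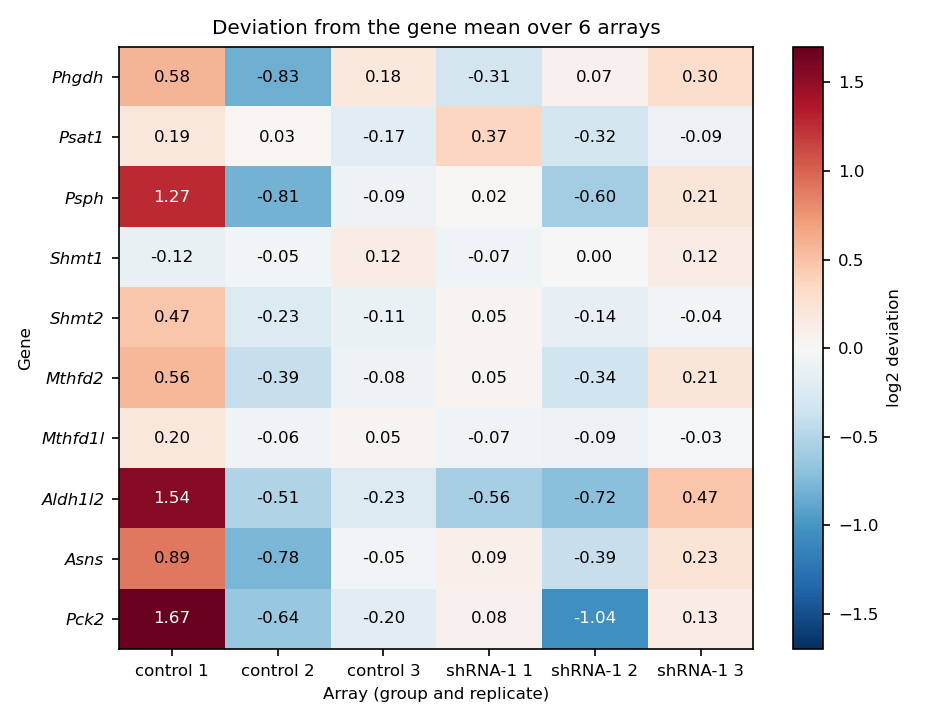
Log2 deviation of each enzyme transcript (rows) from its own mean over the 6 arrays (columns, labelled by group and replicate), with red above and blue below the mean. Pck2, Aldh1l2 and Psph exceed 1 on control replicate 1, and Shmt1 and Mthfd1l stay within 0.20 on every array.

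The members did not all follow 1 profile. A gene with no variation would lie at a root mean square distance of 0.38 from the mean profile of the 10. Each member was set against the other 9 instead, so 0.38 is not its exact reference. Psat1 and Shmt1, which were highest on other arrays than control replicate 1, lay 0.39 and 0.46 from the mean profile of the other 9. Aldh1l2 and Pck2 lay farther still, at 0.50 and 0.55, with log2 deviations of 1.54 and 1.67 on control replicate 1. The distance thus takes in the size of the deviations as well as their pattern. Over the 5 arrays other than control replicate 1, silenced replicate 3 was highest for 7 of the 10 transcripts, against 22.1% of all genes, and a number 2 array of either group was lowest for 9, against 41.2% of all genes. Control replicate 2 was the lowest of these 5 for Phgdh, Psph, Shmt2, Mthfd2 and Asns, and silenced replicate 2 for Psat1, Mthfd1l, Aldh1l2 and Pck2. The fold between the highest and the lowest of the 5 was 2.00 to 2.28 for Phgdh, Psph, Aldh1l2, Asns and Pck2, 1.51 to 1.61 for Psat1 and Mthfd2, and 1.11 to 1.21 for Shmt1, Shmt2 and Mthfd1l. The low position of the number 2 arrays was thus found in both groups, and the labels do not say whether a number marks a shared day.

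Spread between replicates of a group set the width of each comparison. The residual SD of the log2 values within groups was 0.99 for Pck2, 0.91 for Aldh1l2, 0.80 for Psph, 0.63 for Asns, 0.56 for Phgdh and 0.40 for Mthfd2. It was 0.28 for Psat1, 0.27 for Shmt2, 0.11 for Shmt1 and 0.09 for Mthfd1l. The median over all genes was 0.12 and the 95th percentile 0.28, and 7 of the 10 enzymes lay above that percentile.

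No enzyme passed the threshold for a difference between groups. The limma fit over all 22180 genes (adjusted p under 0.05) called 0 of the 10 members, as it called 0% of all genes, and the members' adjusted p was 1.00 throughout. At an unadjusted p under 0.05 there were also 0 members, against 835 genes (338 higher, 497 lower). The exact two-sided permutation p of single members was 0.2 for Mthfd1l and 0.5 to 1.0 for the others, where 3 against 3 arrays allow no p below 0.1. The arrays of both groups overlapped for every member, whereas 5.48% of all genes lay without overlap lower and 3.53% higher in silenced cells.

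In direction, 8 members were negative and 2 positive, with a median log2 difference of -0.07 against -0.01 over all genes. Without control replicate 1 the balance turned, with 8 positive and a median of 0.13 against -0.01 over all genes, and again 0 were called. Without both number 1 arrays the median was 0.12. Within replicate 1 the difference was negative for 8 members and positive for Psat1 and Shmt1, with a median of -0.66. Within replicate 2 it was positive for 6 and negative for 4, with a median of 0.05, and within replicate 3 positive for all but Mthfd1l, with a median of 0.20.

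The intervals show what sizes these arrays could not resolve. The 95% confidence interval of the log2 difference ran from -1.78 to 0.66 for Pck2, from -1.66 to 0.59 for Aldh1l2, from -1.24 to 0.75 for Psph, and from -0.84 to 0.75 for Asns. It was narrower for Shmt1 (-0.18 to 0.26) and Mthfd1l (-0.34 to 0.08). For the median gene the interval reached 0.23 to each side. A change of the size seen for Angpt2 would lie outside the interval of each member other than Pck2 and Aldh1l2.

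**Figure D3:**
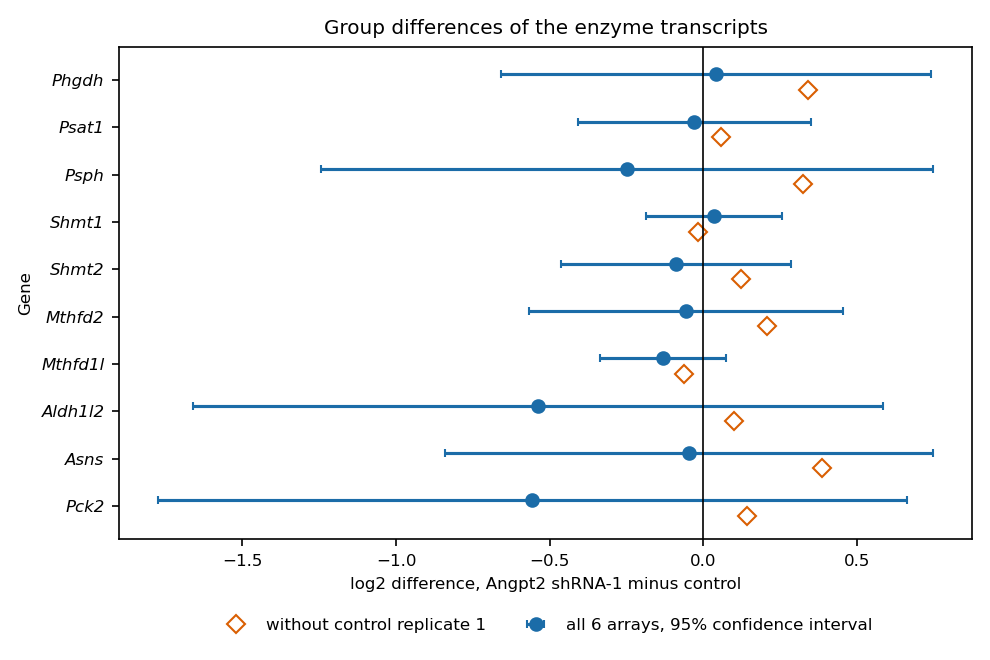
Log2 difference of each enzyme transcript, Angpt2 shRNA-1 minus control (horizontal axis), from limma on all 6 arrays with its 95% confidence interval (blue) and without control replicate 1 (open orange diamonds). Every interval includes 0, and 7 of the 8 negative values turn positive, and that of Shmt1 negative, without that array.

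Other genes of the same pathways were described from lists that were also chosen with earlier results known. Of 25 further folate cycle and glycine cleavage genes 23 were measured, 13 positive and 10 negative, with a median log2 difference of 0.01 and 0 called. Without control replicate 1 the balance turned, with 8 positive and a median of -0.03. They did not share the height on control replicate 1, where 4 of the 23 were highest and 10 lowest, against 25.8% and 19.5% of all genes. Their median deviation there was -0.09. Tyms, the thymidylate synthase, which consumes a one-carbon unit, read 217, 347 and 317 in controls and 352, 396 and 383 in silenced cells. Its groups did not overlap, by a narrow margin. The log2 difference was 0.39 (SE 0.16), and 0.18 without control replicate 1, its lowest array.

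Mthfsl, a relative of the enzyme that recycles 5-formyltetrahydrofolate, read 152, 139 and 136 in controls and 179, 190 and 180 in silenced cells. Its groups did not overlap, as held for 3.53% of all genes in this direction and for 5.48% in the other. The log2 difference of 0.36 (SE 0.08) remained at 0.41 without control replicate 1, with a limma adjusted p of 1.00. Mtrr, the methionine synthase reductase, read 432, 421 and 367 in controls and 341, 340 and 351 in silenced cells, again without overlap (-0.24, SE 0.09, limma adjusted p = 1.00, and -0.19 without control replicate 1). Mthfd1, the cytosolic enzyme that carries the folate activities of the mitochondrial Mthfd2 and Mthfd1l, was chosen after its values were seen. It read 680, 1022 and 1014 in controls and 918, 1007 and 819 in silenced cells. On control replicate 1 the mitochondrial Mthfd2 was thus at its highest and the cytosolic Mthfd1 at its lowest. This pair does not stand for the compartments. Among the other mitochondrial genes of this list, the log2 deviation there ran from -0.35 for Slc25a32 to 0.19 for the dim Dmgdh.

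Genes of aspartate, glutamate and proline metabolism were measured for 17 of 21, 7 positive and 10 negative (median -0.05, 0 called), and 9 were positive without control replicate 1 (median 0.0012). On that array 6 of the 17 were highest and 7 lowest, against 25.8% and 19.5% of all genes, with a median deviation of 0.05. Gpt2, the mitochondrial alanine aminotransferase, read 843, 229 and 394 in controls and 426, 221 and 485 in silenced cells, highest on control replicate 1 and low on both number 2 arrays. Its log2 difference was -0.25 (SE 0.44), and 0.25 without control replicate 1. Aldh18a1, which starts proline synthesis from glutamate, read 1961, 850 and 1113 in controls and 1112, 875 and 1328 in silenced cells (-0.17, SE 0.27, and 0.16 without control replicate 1). Aspg, an asparaginase, was at 0.21 (SE 0.16), and at 0.06 without control replicate 1, its lowest array.

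Of 13 genes that use or degrade serine and glycine, 9 were measured, 3 positive and 6 negative (median -0.03, 0 called), and 5 were positive without control replicate 1 (median 0.04). On that array 3 of the 9 were highest, against 25.8% of all genes, with a median deviation of 0.12. Cth, the cystathionine gamma-lyase that makes cysteine from the sulfur of methionine and the carbon of serine, read 1248, 281 and 337 in controls and 372, 325 and 402 in silenced cells. Control replicate 1 was 3.11-fold above the next highest array, and the log2 difference of -0.43 (SE 0.46) was 0.25 without it. The serine racemase gene Srr was at -0.21 (SE 0.18), and at -0.04 without that array. Agxt, a glyoxylate aminotransferase gene, was at -0.16 (SE 0.09), and at -0.14 without that array, with intensities of 61.7 to 75.3 that lay among those of the other cell types' markers.

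Regulators of the ATF4 response were also high on control replicate 1. Of these 17 genes, all measured, 11 were highest on control replicate 1 and 9 were at least 1.5-fold above the next highest array. Over all genes these shares were 25.8% and 0.451%. Their median deviations were 0.91, -0.46 and -0.12 in controls, and 0.03, -0.39 and 0.19 in silenced cells. For the enzymes the medians were 0.57, -0.45, -0.09, 0.03, -0.33 and 0.17 in the same order. Ddit3, which encodes the stress factor CHOP, read 1108 on control replicate 1 and 205 to 424 on the others, with a log2 difference of -0.51 (SE 0.51), and 0.17 without that array. Atf5, a related factor, was at -0.50 (SE 0.45) and 0.16, and Ppp1r15a, a phosphatase subunit that restores translation, at -0.46 (SE 0.25) and -0.12 in the same pair of fits. The transcript of Atf4 itself, named after its values were seen, read 2056, 795 and 1245 in controls and 1548, 1257 and 1694 in silenced cells (0.23, SE 0.29, and 0.58 without control replicate 1). Among them 5 were positive and 12 negative, with a median of -0.15, and 0 were called. Without control replicate 1 the balance turned, with 14 positive and a median of 0.19.

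Amino acid transporters and cytosolic aminoacyl-tRNA synthetases were also high on control replicate 1. There 8 of 9 measured transporters (10 listed) and 14 of 18 measured synthetases (20 listed) were highest, against 25.8% of all genes. Their median deviations there were 0.44 and 0.40. On the other 5 arrays these medians ran from -0.27 to 0.05 and from -0.15 to 0.01. Slc7a11, the cystine transporter subunit, was at a log2 difference of -0.61 (SE 0.58), Slc1a5, a glutamine and serine carrier, at -0.37 (SE 0.26), and Slc7a5, a large neutral amino acid carrier, at -0.18 (SE 0.15). Without control replicate 1 they were at 0.20, -0.01 and -0.01. The synthetase genes Tars, Wars and Farsa were at -0.21 (SE 0.20), -0.20 (SE 0.12) and 0.19 (SE 0.12), and at 0.05, -0.06 and 0.18 without that array. Of the transporters 1 was positive and 8 negative (median -0.14), and of the synthetases 5 positive and 13 negative (median -0.11), with 0 called. Without control replicate 1 these balances turned too, with 6 of 9 transporters (median 0.04) and 15 of 18 synthetases (median 0.07) positive. Differences between these lists and the enzymes were not tested.

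**Figure D4:**
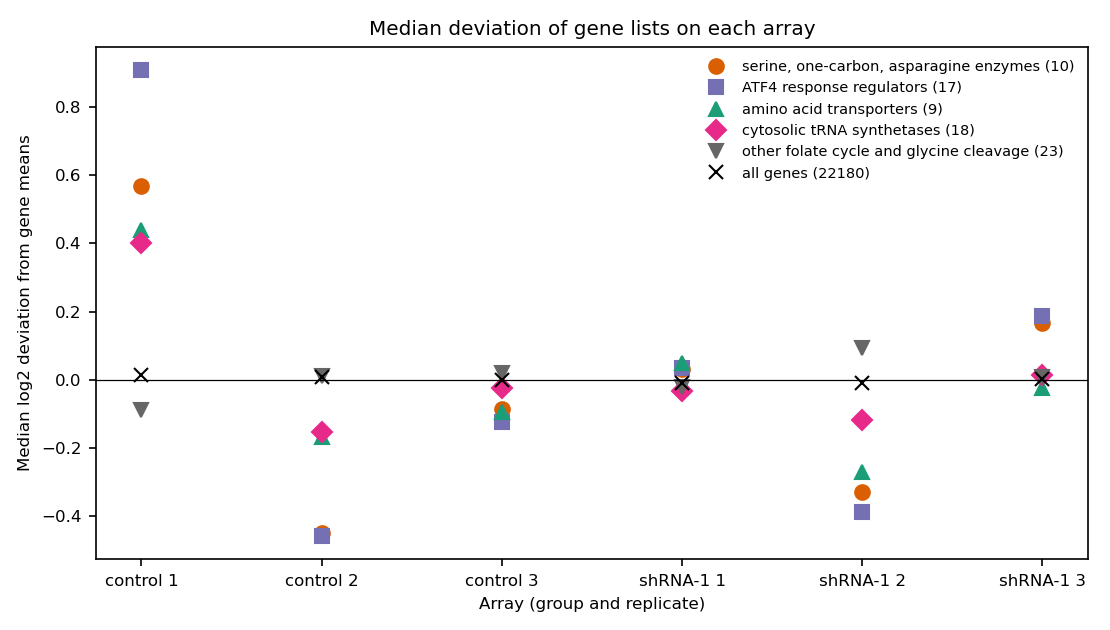
Median log2 deviation from gene means (vertical axis) on each array (horizontal axis) for the enzymes and for other gene lists, with the number of measured genes in brackets. The enzymes stand at 0.57 and the ATF4 response regulators at 0.91 on control replicate 1, where the other folate cycle genes stand at -0.09 and all genes at 0.02.

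Genes whose pattern over the 6 arrays lay closest to the mean profile of the 10 enzymes were ranked by root mean square distance in log2 units, among 11080 other genes above the median level. The closest were Polr3gl (0.030), a subunit of RNA polymerase III, and Aldh18a1 (0.033), followed by Ccpg1os (0.054) and Eif4ebp1 (0.060), a repressor of cap-dependent translation. Rhbdd1 (0.066), a rhomboid protease, Sars (0.067), the cytosolic seryl-tRNA synthetase, Akna (0.074), Gm5617 (0.077), Arl11 (0.087) and Btg1 (0.088) completed the 10. Eif4ebp1 read 1797, 777 and 1130 in controls and 1129, 904 and 1246 in silenced cells. Sars read 3225, 1672 and 1962 in controls and 1976, 1686 and 2254 in silenced cells. The median distance over all candidates was 0.39. The members' own distances to the profile of the other 9 ran from 0.091 for Mthfd2, 0.19 for Asns and 0.20 for Shmt2 to 0.46 for Shmt1, 0.50 for Aldh1l2 and 0.55 for Pck2. All of these exceeded the distances of the 10 genes just named. With so many candidates and 6 arrays, some genes lie close to any profile.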

How the data were processed

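Total RNA (100 ng per sample) was labelled with biotin and hybridised to Affymetrix Mouse Gene 2.0 ST arrays, 1 per culture, per the labels' protocols. The authors deposited a normalized intensity for each transcript cluster, which the values show to be on a linear scale. Background correction, summarization and normalization are not given in the sources used here, nor is a genome build, and there are no detection calls. Depth does not apply, and the number of arrays limits the precision.

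Of 41345 rows, 40425 were complete. Rows with exactly 1 symbol in the platform annotation were kept (23521, with 1814 holding several and 16010 unnamed here), 1 row per gene by the highest mean log2 value, which left 22180 genes (21994 with an ID in the RefSeq table). Listed genes were matched by symbol, 2 of them by a synonym.

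Log2 values, with no pseudocount, were compared with limma 3.58.1 (R 4.3.3), lmFit and eBayes, two-sided, Benjamini-Hochberg adjusted over all genes, threshold 0.05. The code was tested on simulated data. Exact permutation tests used scipy 1.17.1. The labels call the samples biological replicates but do not say how the cultures were separated. Each limma p-value thus sets a group difference against the spread within groups of these samples, and may not reach beyond them.

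The members and lists were chosen with earlier results of these data known. Named genes were the members, Angpt2, the 3 listed genes per pathway list with the largest absolute difference, and the 10 genes closest in profile, beside the pigment cell markers. Mthfd1, Atf4, Slc25a32 and Dmgdh were chosen after their values were seen. Deviations of same-numbered arrays from their group means correlated across genes at 0.13, 0.21 and 0.14, so the numbers were treated as pairs in an alternative fit. Other alternatives were quantile normalization, median centring, restriction to genes above the median or the 33rd percentile of level, averaging the rows of a gene, testing every complete row, array weights, eBayes with trend and robust variance, pseudocounts of 1 and 16, and leaving out each array or each pair.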

Additional observations from a re-analysis of the deposited data

How the results depend on the processing

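In every one of the 20 alternatives 0 of the members measured there passed the threshold (lowest limma adjusted p 0.891). The main fit called 0% of all genes, and the share called in each alternative is not given here. These counts therefore do not set the members apart from other genes. The number highest on control replicate 1 was 8 with quantile normalization and with median centring. It was 8 or 9 with pseudocounts, averaged rows and each other array left out in turn, but these settings could not lower it. Pseudocounts keep the order of the arrays, and each member has a single row. A highest array also stays highest when another is left out. The number was not counted in other settings. With 1 array per group in each replicate number, the replicate block cannot change the log2 differences, only their errors. The median of the members was therefore -0.07 there too, with 0 called. Quantile normalization and median centring gave -0.07 and -0.06. Leaving out 1 array, or both arrays of a replicate number, moved the median between -0.31 and 0.13. Direction differed from that on all arrays in 24 of 200 fits of single members. Many of the 200 could not differ. The replicate block, both level filters, averaged rows, every complete row, and trend with robust variance leave each member's log2 difference unchanged. The cause of the reversals was not tested beyond what each setting leaves out or weights. Array weights gave 0.021 for Psat1 and -0.0090 for Shmt1. The other reversals came from left-out arrays, over which the log2 difference ranged from -0.38 to 0.51 for Phgdh, -0.22 to 0.13 for Psat1, -0.71 to 0.33 for Psph, -0.018 to 0.11 for Shmt1, -0.23 to 0.12 for Shmt2, -0.27 to 0.21 for Mthfd2, -1.16 to 0.25 for Aldh1l2, -0.45 to 0.39 for Asns and -1.02 to 0.14 for Pck2. Mthfd1l was negative in every fit, from -0.19 to -0.06 where arrays were left out. With 3 arrays per group and no detection calls, large as well as small changes of the most variable members could go undetected. On all arrays the confidence interval of the log2 difference ran from -1.78 to 0.66 for Pck2 and from -1.66 to 0.59 for Aldh1l2. Angpt2, at a log2 difference of -1.33, did not pass the threshold either.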

Other observations

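Lower glycolysis supplies the 3-phosphoglycerate that Phgdh draws on, and the methionine cycle takes up folate-bound carbon. Their median log2 deviations on control replicate 1 were -0.06 and -0.0024, against 0.57 for the enzymes. Single genes went further there, with Pgam1 at -0.57 and Nnmt at 0.55. Of 9 listed genes of lower glycolysis and phosphoenolpyruvate metabolism 7 were measured, 6 of them positive (median log2 difference 0.05, 0 called by limma), and again 6 without control replicate 1 (median 0.03). Pgam1, the mutase next to the branch into serine synthesis, read 1551, 2389 and 2999 in controls and 2566, 1769 and 2979 in silenced cells, so it was lowest on control replicate 1, where Phgdh was highest. Its log2 difference was 0.09 (SE 0.25), and -0.17 without that array. Pgk1, which makes 3-phosphoglycerate, was at 0.08 (SE 0.10), and at 0.07 without that array. Pck1, the cytosolic counterpart of Pck2, read 62.9 to 90.9, among the intensities of the other cell types' markers, at 0.23 (SE 0.13), and at 0.22 without that array. Of 11 methionine cycle genes 10 were measured, 7 of them positive (median 0.04, 0 called by limma), and 6 without control replicate 1 (median 0.02). Nnmt, a nicotinamide methyltransferase gene, was at -0.24 (SE 0.19), and at -0.02 without control replicate 1. Pemt, which methylates phosphatidylethanolamine, was at -0.23 (SE 0.09), and Gnmt, a glycine methyltransferase gene, at 0.15 (SE 0.09), and without that array at -0.27 and 0.11. Gnmt was dim, with intensities of 65.6 to 82.5.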
